A study of Mus with 12 samples.

Results

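The blood of mice given human umbilical cord mesenchymal stem cells (MSCs) by a combined subcutaneous and intravenous route was compared with the blood of control mice that never met the sensitiser. The comparison used 6 of the 12 blood libraries, 3 of the scivMSC group and 3 of the Solvent group. Genes entered it when their FPKM, fragments per transcript length and sequencing depth, reached 1 in at least 3 of these 6 libraries, which left 4220 of the 25247 genes in the table. All animals were female BALB/c mice aged 6 weeks at the start, and blood was taken on day 30. The Solvent mice had only the vehicle, acetone mixed with olive oil. The scivMSC mice were sensitised with 1% 2,4-dinitrochlorobenzene (DNCB), a hapten that evokes dermatitis resembling atopic dermatitis, and were then challenged with 0.5% DNCB. They also received MSCs in doses of 50 µL under the dorsal skin and 50 µL into the tail vein. The 2 groups therefore differed both in DNCB and in cell treatment, and their parts in any difference cannot be told apart here. No group had MSCs without DNCB. The other 6 libraries, from mice with DNCB alone and from mice with DNCB and subcutaneous MSCs (scMSC), entered the fit so that 4 groups shared an estimate of the spread.

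Whole blood RNA is a mixture. Reticulocytes, young red cells that keep RNA after they lose the nucleus, supply most of it as globin transcripts, and platelets carry RNA from their parent megakaryocytes. Neutrophils, monocytes and lymphocytes have nuclei and make their own RNA, and neutrophils package different granule proteins at successive stages of their maturation in bone marrow. In such bulk samples fewer cells of a type and less RNA per cell cannot be told apart.

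Depth and library composition set the frame for every value. Summed counts were between 61559499 and 65139421 in Solvent and between 53102830 and 54239295 in scivMSC. Haemoglobin genes took 93.6% ± 1.20 of summed FPKM in Solvent and 94.9% ± 0.854 in scivMSC (SD, n = 3 each, exact two-sided permutation p = 0.3, where 0.1 is the smallest that 3 against 3 can give). Their share of counts was 83.2% ± 3.10 and 87.3% ± 2.13 (exact two-sided permutation p = 0.2, n = 3 each). Genes at an FPKM of 1 or more numbered 4346 to 6371 in Solvent and 1804 to 3140 in scivMSC. The lowest of these values was in scivMSC replicate 2 and the highest in Solvent replicate 1. The main changes of calls without either library are given below, but not every change of a count. Each library was taken to come from a different mouse. The permutation p-values rest on 3 animals a group, and those of the gene tests on the spread within all 4 groups.

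With libraries scaled by total counts, the scale of FPKM, edgeR's quasi-likelihood test with Benjamini-Hochberg adjustment called 121 of the 4220 genes higher (2.87%) and 2541 lower (60.2%) in scivMSC, together 63.1%, at an adjusted p under 0.05 and a fold change over 2. The median log2 fold change over all tested genes was -1.46. Under TMM scaling, which assumes that most genes do not change, that median was -0.08, a shift of 1.38, and the calls became 1049 higher (24.9%) and 684 lower (16.2%), together 41.1%. The lower share of the calls moved from 95.5% to 39.5%. Without Solvent replicate 1 the total-count scale gave 183 higher calls. All 121 higher calls on the total-count scale and all 684 lower calls under TMM held under both scalings (2.87% and 16.2% of the tested genes). There were 0 genes called in opposite directions. This was nearly fixed in advance, because TMM moved the values upwards. A call under both scalings is thus a call under the stricter scaling for its direction and no further support. The groups did not overlap in FPKM for 311 genes that were higher (7.37%) and 2680 that were lower (63.5%) in scivMSC, together 70.9%. The filter itself leaned towards lower values, since 1278 of the tested genes passed through Solvent libraries alone, of which 1252 were called lower, and 32 passed through scivMSC libraries alone. The other 2910 genes reached an FPKM of 1 in both groups, and of these 100 were called higher (3.44%) and 1289 lower (44.3%), or 1017 (34.9%) and 161 (5.53%) under TMM, with medians of -0.92 and 0.49. A member that passed only through the group where it is high had to differ, so its values and call are a description and no support for its list. Among the genes named below Ly6g, Olfm4, Ptgs1, Tbxas1, Apol10c-ps and Bmp2 passed through scivMSC alone. Through Solvent alone passed Slc2a1, Smad7, Bcl2, Ms4a1, Pax5, Ly6d, H2-DMb2, Nlrc5, Tap1, Klrd1, Ace, Csf1r, Tlr1, Gbp9, Nfkb1, Rela, Ikzf1, Srsf3, Psmb9, Rn7sk, Rpph1 and Rmrp. Values are log2 fold changes on the total-count scale unless TMM is named.

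**Figure D1:**
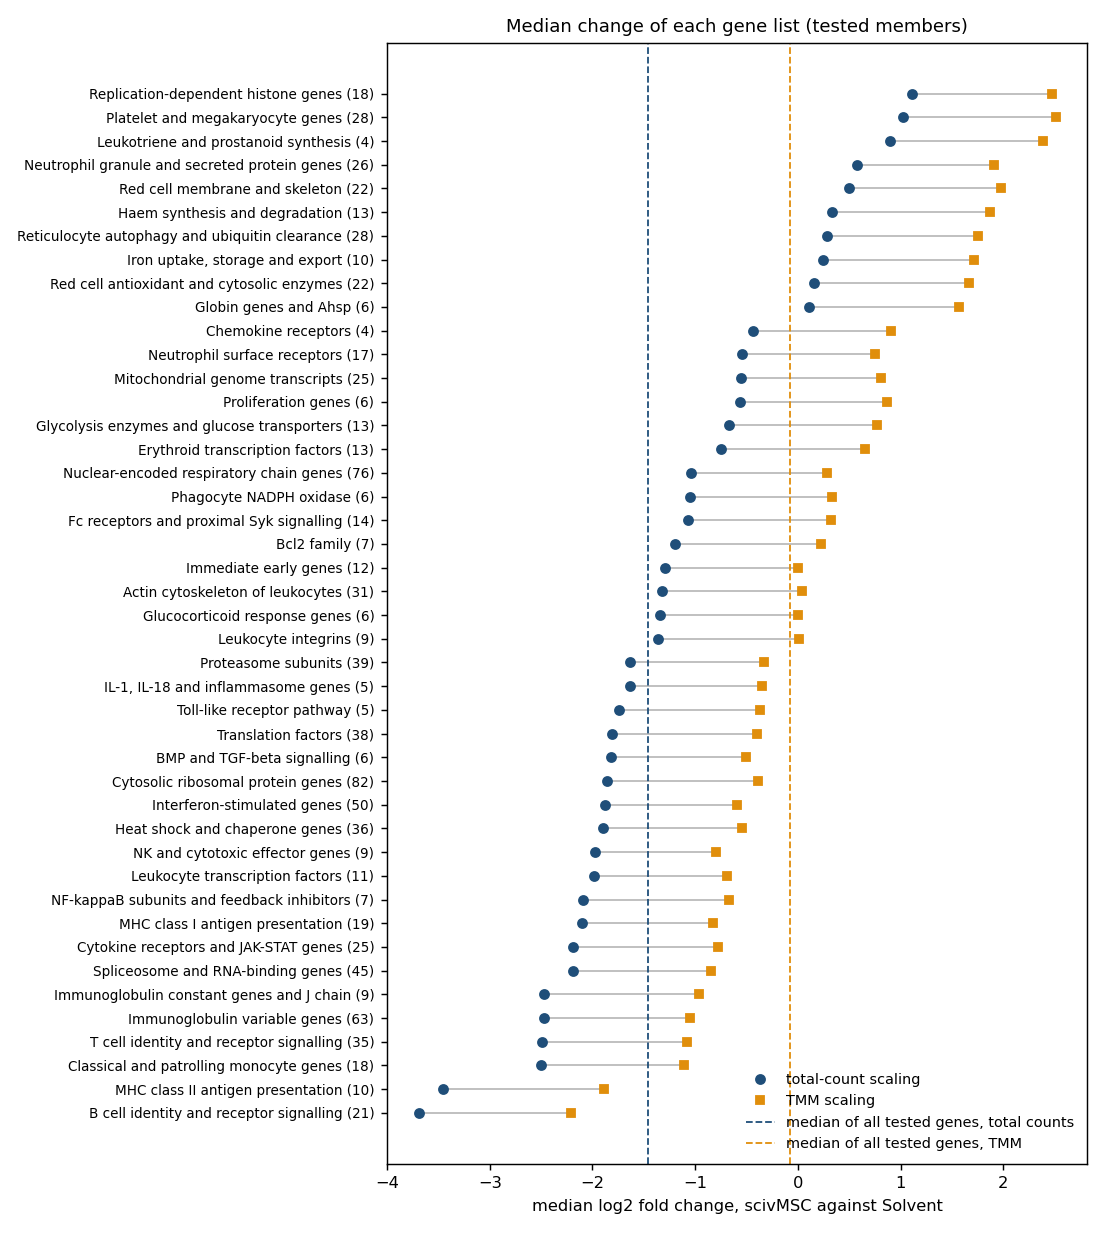
Median log2 fold change, scivMSC against Solvent, of the tested members of each gene list with 3 or more tested genes (number in brackets), under total-count scaling (circles) and TMM scaling (squares). Dashed lines mark the medians of all tested genes, -1.46 and -0.08; histone, platelet, granule and red cell lists lie above both lines, and B cell and MHC class II lists lie furthest below.

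Genes for granule proteins of immature neutrophils remained far above control. Ngp, which encodes neutrophilic granule protein, had FPKM of 2.97, 4.90 and 4.61 in the Solvent mice and 77.7, 27.98 and 43.2 in the scivMSC mice. The groups were far apart, and the log2 fold change was 3.57 ± 0.36 (SE) at an adjusted p of 2.56e-05, and 4.80 under TMM. Camp, the gene for the antimicrobial peptide cathelicidin, had FPKM of 1.35, 1.90 and 1.36 against 23.5, 10.2 and 13.2, for a log2 fold change of 3.33 ± 0.38 (SE). Ltf, the gene for the iron-binding protein lactotransferrin, had FPKM of 0.809, 1.03 and 1.16 against 18.3, 5.57 and 9.32, for a log2 fold change of 3.45 ± 0.39 (SE). Lcn2, the gene for the siderophore-binding lipocalin 2, had FPKM of 1.42, 1.70 and 1.56 against 12.2, 5.44 and 6.71, for a log2 fold change of 2.37 ± 0.32 (SE). In all of these genes scivMSC replicate 1 was the highest and replicate 2 the lowest of the treated libraries, and no library of either group crossed into the other. Mean FPKM in mice with DNCB alone was 452 for Ngp, 93.3 for Camp, 91.5 for Ltf and 95.2 for Lcn2, so the scivMSC values lay between the Solvent and DNCB levels.

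Of the 37 genes listed for neutrophil granules and secreted proteins, 36 were in the table and 26 passed the filter, 0 of them through Solvent alone and 3 through scivMSC alone. Of the 26, 11 were called higher and 1 lower, beside 2.87% and 60.2% of all tested genes, and 22 were called higher under TMM, beside 24.9%. The 23 that reached the limit in both groups held 8 of the higher calls, or 19 under TMM. The list's median was 0.57, or 1.91 under TMM, and its lower count became 2 without scivMSC replicate 1. The other higher calls included the chitinase-like gene Chil3 (2.06), olfactomedin 4, Olfm4 (2.03), the granulocyte surface antigen gene Ly6g (1.96), the collagenase gene Mmp8 (1.79) and the neutrophil surface protein gene Cd177 (1.38). Another 14 genes of the list were not called on the total-count scale. S100a8 and S100a9, whose products form the calcium-binding protein calprotectin, had log2 fold changes of 0.53 (adjusted p 0.186) and 0.17 (adjusted p 0.661). S100a9 FPKM was 238, 279 and 132 in Solvent and 380, 126 and 223 in scivMSC, with overlapping groups. Retnlg (0.62), the gelatinase gene Mmp9 (-0.33) and the lysozyme gene Lyz2 (-0.30) were likewise not called, although S100a8, S100a9, Retnlg and Lyz2 were called higher under TMM, at 1.23 to 1.97.

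Genes of neutrophil receptors had a median between those of the granule genes and of all genes. Of 26 listed genes 17 passed the filter, and 0 were called higher and 7 lower (41.2%, beside 60.2% of all tested genes). Under TMM 5 were called higher (29.4%, beside 24.9%), and the medians were -0.55 and 0.75. The chemokine receptor gene Cxcr2 had FPKM of 7.88, 9.04 and 5.63 in Solvent and 7.83, 2.06 and 5.91 in scivMSC, a log2 fold change of -0.51 (adjusted p 0.211). Its groups overlapped. The G-CSF receptor gene Csf3r had -1.07 on the total-count scale, a call lost without Solvent replicate 1 or scivMSC replicate 2, and 0.23 under TMM. Trem1 and Clec4d, both genes of activating myeloid receptors, had 0.08 each. Without Solvent replicate 1 the higher count became 1. The 7 lower calls became 3 without Solvent replicate 1 and 3 without scivMSC replicate 2, and the 5 higher calls under TMM became 9 without scivMSC replicate 2.

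**Figure D2:**
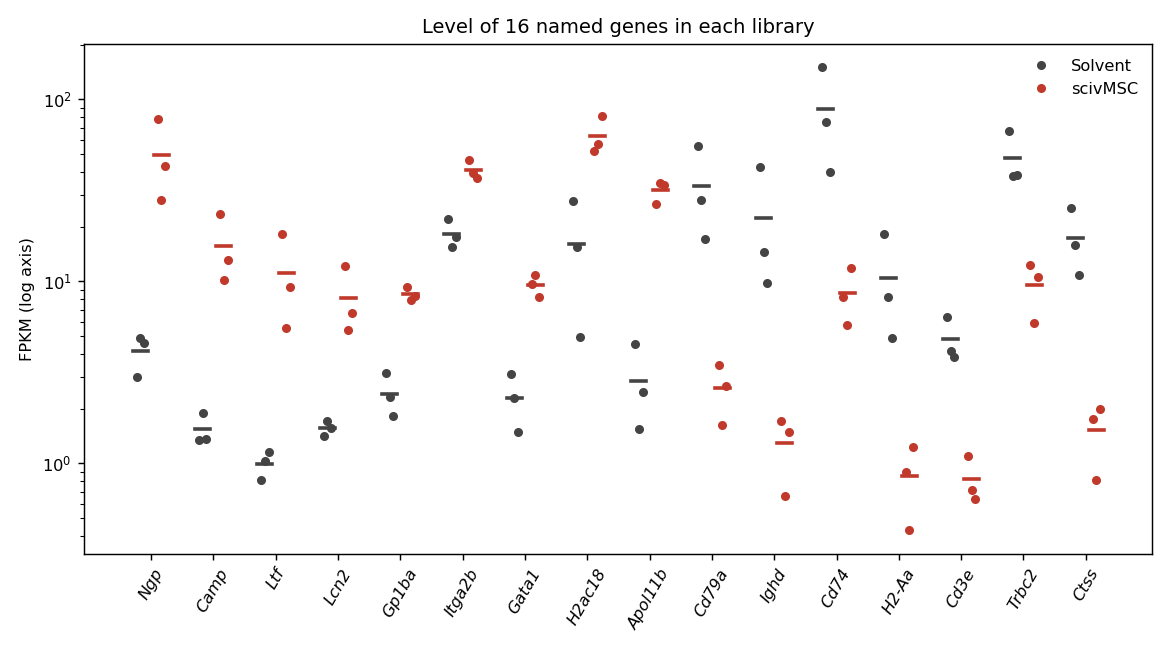
FPKM (log axis) of 16 named genes in each of the 3 Solvent (grey) and 3 scivMSC (red) libraries, with a bar at each group mean. The genes are a selection in which no groups overlap, so the separation is no result about their lists. Other members of those lists, such as S100a9, did overlap. Values of the granule and platelet genes drawn and of Gata1, H2ac18 and Apol11b lie higher in scivMSC. Those of the B cell, T cell and MHC class II genes drawn and of Ctss lie lower.

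Platelet genes were higher as a group. Gp1ba, which encodes the platelet receptor for von Willebrand factor, had FPKM of 3.13, 2.31 and 1.81 in Solvent and 9.29, 7.87 and 8.30 in scivMSC, for a log2 fold change of 1.80 ± 0.31 (SE) at an adjusted p of 0.000177. Its partner Gp1bb had 8.80, 5.89 and 5.41 against 24.7, 23.5 and 18.5, for a log2 fold change of 1.72 ± 0.29 (SE). Itga2b, the integrin subunit of the fibrinogen receptor, had 21.9, 15.5 and 17.5 against 46.5, 39.3 and 37.1, for a log2 fold change of 1.16 ± 0.24 (SE). The scivMSC libraries stood above all Solvent libraries in each of these genes. The remaining subunits of the von Willebrand factor receptor complex, Gp9 (1.47) and Gp5 (1.42), and the platelet granule receptor gene Treml1 (1.54) were also called higher, as was Tubb1 (1.15), the platelet-specific beta tubulin. Tubb1 had a log2 fold change of 0.99 without scivMSC replicate 1, under the threshold of 1. The platelet chemokine genes Pf4 and Ppbp were not called on the total-count scale, at 0.64 and 0.43, while under TMM they were called at 2.14 and 1.88.

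Of 32 listed platelet and megakaryocyte genes 28 passed the filter, 0 of them through Solvent alone and 1 through scivMSC alone. Of these 14 were called higher and 0 lower, and all 28 were called higher under TMM. Of the 27 that reached the limit in both groups 13 were called higher, and all 27 under TMM. The groups did not overlap for 23 of the 28, all higher in scivMSC, beside 7.37% of all tested genes. The list's median was 1.02, or 2.51 under TMM. Summed over the list, FPKM was 1619, 1297 and 988 in Solvent and 2378, 1983 and 2237 in scivMSC. The serotonin transporter gene Slc6a4, which platelets use to take up serotonin, was outside the list and had a log2 fold change of 1.76 ± 0.32 (SE) at an adjusted p of 0.000242. Of the 4 tested genes of leukotriene and prostanoid synthesis, the cyclooxygenase 1 gene Ptgs1 (1.35) and the thromboxane synthase gene Tbxas1 (1.31), which serve thromboxane production in platelets, were called higher, but both had passed the filter only through scivMSC. Alox5ap, the 1 gene of the list that reached the limit in both groups and a gene that leukocytes need for leukotriene synthesis, had 0.48 and was called higher under TMM at 1.96.

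**Figure D3:**
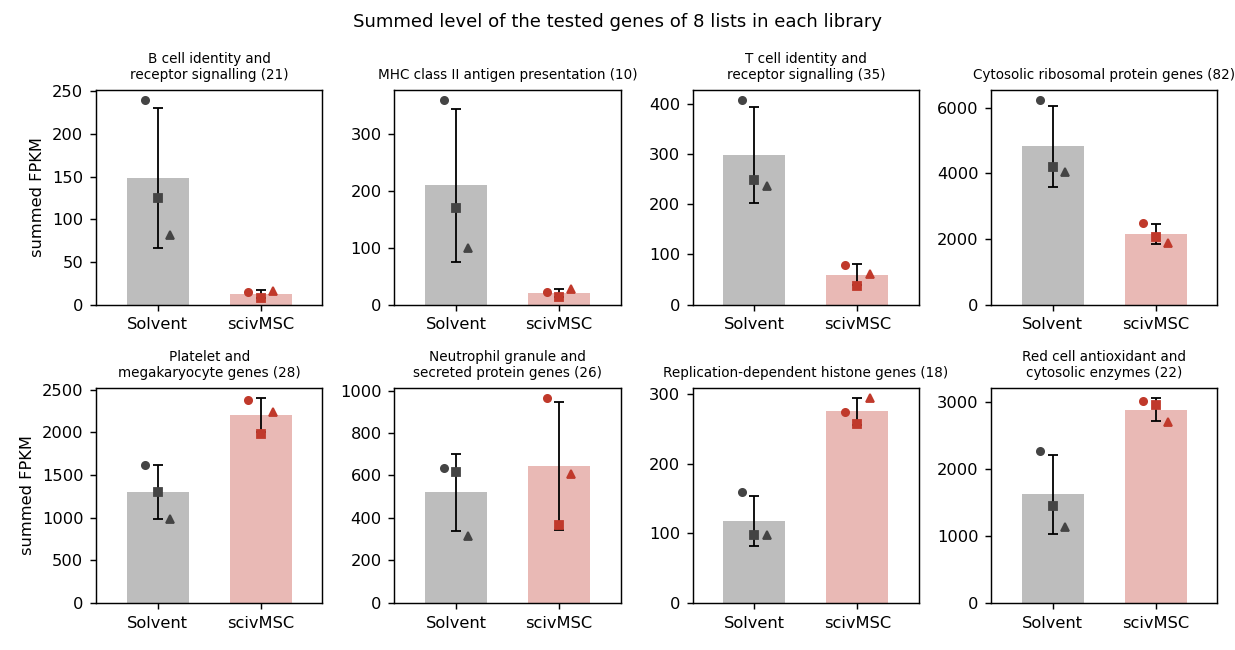
Summed FPKM of the tested genes of 8 lists (number in brackets) in each library, with replicates 1, 2 and 3 as circle, square and triangle, bars at the group mean and error bars of 1 SD (n = 3). B cell, MHC class II, T cell and ribosomal protein sums separate the groups downwards, platelet, histone and antioxidant sums separate them upwards, and the granule sums overlap. Within the antioxidant means of 1624 in Solvent and 2890 in scivMSC, Gpx1 alone had 697 and 1793. It was the 1 gene of those 22 called higher on the total-count scale.

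On the total-count scale the most abundant red cell transcripts differed little and a few regulators rose, while under TMM most of these genes were called higher. Hbb-bs, an adult beta globin gene, had FPKM of 319330, 323065 and 329545 in Solvent and 316259, 322075 and 355967 in scivMSC, a log2 fold change of 0.03. The alpha globin gene Hba-a1 had 0.21 and its near copy Hba-a2 had -0.27, and reads could be split between both. Hbb-bt had 0.19. Of the 6 tested globin list genes 0 were called on the total-count scale and all 6 were called higher under TMM, with medians of 0.11 and 1.57. Globins make up most of the total, so on that scale their change is close to 0 by construction.

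Genes of haem synthesis were likewise not called higher on the total-count scale. Alas2, the erythroid enzyme that starts haem synthesis, had a log2 fold change of 0.08, and Alad (0.85), Urod (0.33) and Fech (-0.02), which act later in the pathway, were not called. Without scivMSC replicate 2, however, Alad was called higher (1.23, adjusted p 0.0235). The haem-degrading enzyme gene Hmox1 had -0.74. Of 13 tested genes of haem synthesis and degradation 0 were called higher and 1 lower, with 9 higher under TMM and medians of 0.33 and 1.87. On the total-count scale the higher count became 4 without Solvent replicate 1 and 1 without Solvent replicate 3 or any 1 of the scivMSC libraries, and the lower count became 4 without scivMSC replicate 1. Iron genes had a median of 0.25 over 10 tested genes, of which 0 were called higher and 1 lower, with 7 higher under TMM, where their median was 1.72. The lower count became 2 without Solvent replicate 3 or scivMSC replicate 1, and the higher count 1 without Solvent replicate 3. The transferrin receptor gene Tfrc (0.68), the ferritin chains Fth1 (0.32) and Ftl1 (0.11) and the iron-sulphur gene Glrx5 (0.38) were not called.

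Of the 22 tested genes of the red cell membrane and skeleton 3 were called higher and 2 lower, and 20 were called higher and 1 lower under TMM, with medians of 0.50 and 1.98. The higher ones were Tmod1 (1.34), which caps actin filaments, the tetraspanin gene Tspan33 (1.13), and Stom (1.05), the gene for stomatin. Their higher count became 1 without Solvent replicate 2, where Tmod1 and Stom were not called, and Stom was also not called without Solvent replicate 3 or scivMSC replicate 1. The lower count became 1 without Solvent replicate 1 or scivMSC replicate 2. The anion exchanger gene Slc4a1 (0.58) and the membrane protein gene Epb42 (0.64) were not called. The glucose transporter gene Slc2a1 was called lower under both scalings (-2.36 and -1.10), but under TMM the call was lost without Solvent replicate 3, scivMSC replicate 2 or scivMSC replicate 3. Of 28 tested genes of autophagy and ubiquitin clearance in reticulocytes 1 was called higher and 2 lower, with 24 higher under TMM and medians of 0.28 and 1.75. Gabarapl1, an autophagosome gene, was the higher call (1.10), and it had 0.73 (adjusted p 0.0577) without Solvent replicate 2. The higher count became 3 without Solvent replicate 1 and 2 without scivMSC replicate 3, and the lower count 1 without Solvent replicate 1, scivMSC replicate 2 or scivMSC replicate 3. The mitophagy receptor gene Bnip3l (0.31), the ubiquitin enzymes Ube2o (0.51) and Ube2l6 (-0.02), Trim58 (0.19), Foxo3 (-0.48) and Gabarapl2 (0.28) were not called.

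Gpx1, the gene for the peroxide-reducing enzyme glutathione peroxidase 1, stood out among the antioxidant genes. Its FPKM was 1194, 671 and 225 in Solvent and 1810, 1832 and 1737 in scivMSC, for a log2 fold change of 1.36 ± 0.38 (SE) at an adjusted p of 0.00459. The treated values were close together while the Solvent values spread widely, and without Solvent replicate 3 the log2 fold change was 0.94, under the threshold. Of the 22 tested antioxidant and cytosolic enzyme genes 1 was called higher and 0 lower, with 18 higher under TMM and medians of 0.16 and 1.67. The higher count became 4 without Solvent replicate 1 and 0 without Solvent replicate 3, and the lower count became 1 without Solvent replicate 3 and 2 without scivMSC replicate 1. The peroxiredoxin gene Prdx2 (0.73), the catalase gene Cat (0.53), the carbonic anhydrase gene Car2 (0.66) and Bpgm (0.10) were not called. Without Solvent replicate 1, however, Prdx2 (1.08, adjusted p 0.0121) and Car2 (1.10, adjusted p 0.0209) were called higher.

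Erythroid transcription factors split. Gata1, the master regulator of red cell and megakaryocyte genes, had FPKM of 3.11, 2.29 and 1.50 in Solvent and 9.64, 10.8 and 8.24 in scivMSC, for a log2 fold change of 2.05 ± 0.33 (SE) at an adjusted p of 0.000117, and 3.61 under TMM. Its groups were far apart, and its mean was 2.16 in mice with DNCB alone and 8.20 in the scMSC group. Gfi1b, a repressor of the same lineages, had 1.04, 1.33 and 0.747 against 3.27, 3.67 and 2.12, for a log2 fold change of 1.52 ± 0.46 (SE) at an adjusted p of 0.00829. Nfe2, a megakaryocyte and red cell factor, had 1.24 (adjusted p 0.0263), and it was not called without Solvent replicate 1 (adjusted p 0.0727), Solvent replicate 2 (adjusted p 0.105) or scivMSC replicate 1 (adjusted p 0.13). Tal1 had 0.66. Of 13 tested factors 3 were called higher (23.1%, beside 2.87% of all tested genes) and 5 lower (38.5%, beside 60.2%). Under TMM 5 were higher (38.5%, beside 24.9%) and 1 lower (7.69%, beside 16.2%). The medians were -0.74 and 0.66. Ldb1, a cofactor of Gata1 complexes, was the 1 gene called lower under both scalings (-2.71 and -1.37).

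Several histone genes that are tied to DNA replication rose. H2ac18 had FPKM of 27.8, 15.4 and 4.93 in Solvent and 51.9, 57.1 and 80.6 in scivMSC, for a log2 fold change of 1.97 ± 0.44 (SE) at an adjusted p of 0.00106. H4c9 had 26.7, 17.9 and 18.7 against 57.1, 57.9 and 58.0, for a log2 fold change of 1.45 ± 0.29 (SE). Neither gene overlapped between the groups, and the treated values of H4c9 lay close together. The linker histone gene H1f2 had 1.13, while H2bc8 (0.68) and H2bc4 (0.61) were not called. Of 66 listed genes 18 passed the filter, with 7 called higher and 1 lower, 16 higher under TMM, and medians of 1.11 and 2.47. The 7 became 3 without Solvent replicate 2, where H1f2 was not called, and the lower call was lost without Solvent replicate 1, scivMSC replicate 2 or scivMSC replicate 3. Histone genes are near copies of one another, and reads could be split among them. Of 30 listed proliferation genes 6 passed the filter, 0 were called higher and 3 lower, with 3 higher and 1 lower under TMM. Their medians were -0.56 and 0.87. Of the 5 that reached the limit in both groups 2 were called lower, and 0 under TMM. The replication clamp gene Pcna had -2.30 and the cell cycle marker gene Mki67 had 0.24.

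Apol11b, an apolipoprotein L gene, was among the genes with the largest rise. Its FPKM was 4.52, 1.54 and 2.48 in Solvent and 26.6, 34.8 and 33.8 in scivMSC, for a log2 fold change of 3.47 ± 0.52 (SE) at an adjusted p of 9.59e-05, and 5.08 under TMM. Its mean FPKM was 3.92 with DNCB alone and 7.35 in the scMSC group. The pseudogene Apol10c-ps had 0.596, 0.0109 and 0.599 against 2.50, 3.70 and 2.73, for a log2 fold change of 2.85 ± 0.77 (SE), and it passed the filter only through scivMSC. The other 11 of the 13 family members did not pass the filter. The family members are similar in sequence, and how reads were divided between them is not certain. Bmp2, a secreted ligand of the bone morphogenetic protein pathway, was low throughout, with FPKM of 0.0792, 0.228 and 0.0306 against 1.80, 1.39 and 1.31, for a log2 fold change of 3.72 ± 0.66 (SE). It passed the filter only through scivMSC, the group where it was high. Of the 6 tested genes of that list, Tgfb1, the ligand gene of the related TGF-beta pathway, had -0.24, and the inhibitor gene Smad7 had -2.14. Of the 6, 1 passed through scivMSC alone and 3 through Solvent alone, and of the remaining pair 1 was called lower, and 1 higher under TMM.

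Apoptosis regulators of the Bcl2 family went in both directions. Bcl2l1, the gene of the survival protein Bcl-xL, which red cell precursors need, had FPKM of 22.4, 10.7 and 12.0 in Solvent and 28.3, 40.8 and 29.4 in scivMSC, for a log2 fold change of 1.12 ± 0.38 (SE) at an adjusted p of 0.0142. Its groups did not overlap, but the call was lost without Solvent replicate 2 (0.92), Solvent replicate 3 (0.98) or scivMSC replicate 2 (0.94). Bcl2, which lymphocytes rely on, had -2.98, or -1.68 under TMM, and Mcl1 had -1.92. Of 7 tested genes 1 was called higher and 4 lower (57.1%, beside 60.2% of all tested genes). Under TMM 3 were higher and 1 lower, and the medians were -1.20 and 0.22.

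**Figure D4:**
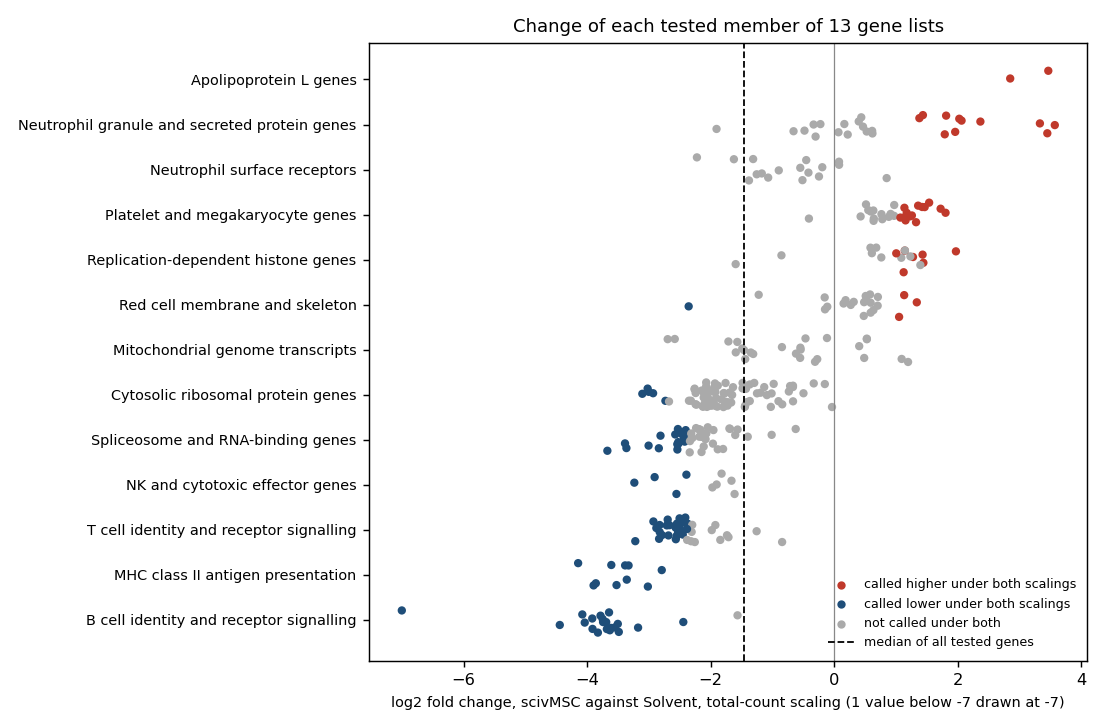
Log2 fold change on the total-count scale of every tested member of 13 gene lists, coloured by its calls under both scalings, with the median of all tested genes at -1.46 as a dashed line. Granule genes reach 3.57, platelet genes cluster around 1, and B cell and MHC class II genes lie to the left of the dashed line with all but 1 of them called lower under both scalings.

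B cell genes had the lowest median of all lists with 3 or more tested members, under both scalings. Cd79a, a signalling chain of the B cell receptor, had FPKM of 55.4, 27.9 and 17.1 in Solvent and 3.49, 1.62 and 2.67 in scivMSC, for a log2 fold change of -3.69 ± 0.49 (SE) at an adjusted p of 5.59e-05, and -2.21 under TMM. Its partner Cd79b had 39.9, 19.6 and 11.8 against 1.78, 0.677 and 2.71, for a log2 fold change of -3.78 ± 0.58 (SE). Solvent replicate 1 was the highest in each, and all treated values were below all Solvent values. Ms4a1, which encodes CD20, had -3.63, and the B cell master regulator gene Pax5 had -4.44. Ly6d, at 3.32, 2.06 and 1.39 FPKM in Solvent, was listed at 0 in all 3 scivMSC libraries and was at least 7.91-fold lower against a floor of 12 counts per library. Of 30 listed genes 21 passed the filter, 16 of them through Solvent alone, where a lower call was nearly fixed by the filter. Of the 5 that reached the limit in both groups, 5 were called lower under both scalings, beside 44.3% and 5.53% of all such genes. Over those 5 the medians were -3.74 and -2.21. Over the 21 they were -3.69 and -2.21, the first -3.68 with Ly6d at its bound. Summed FPKM of the 21 genes was 240, 125 and 81.3 in Solvent and 14.4, 7.61 and 15.96 in scivMSC.

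Immunoglobulin genes, which B cells and antibody-secreting plasma cells transcribe, were mostly lower on the total-count scale, by unequal amounts. Ighd, the IgD heavy chain of naive B cells, had FPKM of 42.7, 14.5 and 9.74 against 1.72, 0.665 and 1.49, for a log2 fold change of -4.11 ± 0.63 (SE) or -2.59 under TMM. The IgM chain Ighm had -3.19, or -1.67 under TMM. The light chain Igkc (-2.24 and -0.81), the IgA chain Igha (-2.01 and -0.63) and the joining chain Jchain (-1.89 and -0.46), which plasma cells secrete with IgA and IgM, were called lower on the total-count scale but not under TMM. Iglc2, a lambda light chain, had -3.33 and -1.88. The IgG1 chain Ighg1 had FPKM of 0.712, 1.79 and 0.774 in Solvent and 1.52, 1.23 and 1.43 in scivMSC, a log2 fold change of 0.35 that was not called, and 1.72 under TMM, where it was called higher. It was the only one of the 9 tested constant and J chain genes that was not called lower, and 4 of the 9 were called lower under TMM, with medians of -2.47 and -0.97. Of 200 variable genes listed, 63 passed the filter, 24 of them through Solvent alone. Of the 63, 51 were called lower, and 8 under TMM (12.7%, beside 16.2% of all tested genes). Of the 39 that reached the limit in both groups 28 were called lower (71.8%), and 2 under TMM (5.13%), beside 44.3% and 5.53% of all such genes. The medians of the 63 were -2.47, or -2.37 with genes at the floor set to their bound, and -1.05. Igkv1-135 had -3.45 and -1.97. The 51 became 36 without Solvent replicate 1, and the 8 became 15 without scivMSC replicate 3. Variable genes resemble one another closely, and their individual values are uncertain.

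Genes of MHC class II, the complex that presents peptides to CD4+ T cells, fell as well. Cd74, the invariant chain, had FPKM of 150, 74.9 and 40.1 in Solvent and 8.25, 5.77 and 11.8 in scivMSC, for a log2 fold change of -3.36 ± 0.49 (SE) at an adjusted p of 9.3e-05, and -1.79 under TMM. H2-Aa had 18.2, 8.23 and 4.86 against 0.893, 0.429 and 1.23, for a log2 fold change of -3.61 ± 0.54 (SE). H2-DMb2, a chain of the peptide-loading factor, had 18.3, 8.24 and 5.26 against 0.654, 0.521 and 0.953, for a log2 fold change of -3.89 ± 0.54 (SE). No treated library reached the lowest Solvent value in these genes. H2-Ab1 (-3.52) and H2-Eb1 (-3.38) were alike. Of 19 listed genes 10 passed the filter, 4 of them through Solvent alone, with medians of -3.45 and -1.89. The 6 that reached the limit in both groups were all called lower under both scalings, with medians of -3.37 and -1.79. B cells, monocytes and dendritic cells all carry these genes, so their source cannot be told apart. None of the 16 listed dendritic cell genes passed the filter.

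MHC class I, which nearly all nucleated cells carry, was uneven. The light chain gene B2m had FPKM of 531, 280 and 274 in Solvent and 531, 280 and 256 in scivMSC, a log2 fold change of -0.03 or 1.40 under TMM. The heavy chains H2-D1 (-1.02 and 0.48) and H2-K1 (-0.90 and 0.50) changed sign with the scaling, and the call of H2-D1 was lost without Solvent replicate 1, scivMSC replicate 2 or scivMSC replicate 3. The class I regulator gene Nlrc5 (-3.20 and -1.82), the peptide transporter gene Tap1 (-2.67 and -1.30) and the similar genes H2-Q4 (-2.83 and -1.48) and H2-Q6 (-2.37 and -1.08) were lower under both. Of 19 tested genes 16 were called lower, and 9 lower and 1 higher under TMM, with medians of -2.10 and -0.82. The 9 became 6 without scivMSC replicate 2. Of the 14 that reached the limit in both groups 11 were called lower (78.6%), and 4 under TMM (28.6%). The shares of all such genes were 44.3% and 5.53%.

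T cell genes were lower, with smaller folds than the B cell list. Cd3e, a chain of the T cell receptor complex, had FPKM of 6.41, 4.15 and 3.86 in Solvent and 1.10, 0.718 and 0.639 in scivMSC, for a log2 fold change of -2.55 ± 0.36 (SE) at an adjusted p of 7.67e-05, and -1.11 under TMM. Ccr7, a homing receptor of naive T cells, had 24, 16.2 and 12.3 against 3.46, 1.77 and 1.91, for a log2 fold change of -2.88 ± 0.38 (SE). Cd4 had 10.7, 6.49 and 6.10 against 2.89, 0.486 and 1.50, and Cd8a had 6.05, 4.23 and 3.43 against 1.12, 0.550 and 0.950. The groups were apart for all of them, and the helper and cytotoxic coreceptor genes had similar log2 fold changes, -2.26 (SE 0.51) and -2.38 (SE 0.38). The receptor chains Trbc1 (-2.82) and Trbc2 (-2.32), Cd3g (-2.49), the kinase gene Lck (-2.31) and the naive T cell factor gene Tcf7 (-2.50) were also called lower. Of 40 listed genes 35 passed the filter, 12 through Solvent alone. Of these 34 were called lower and 0 higher, with 23 lower and 0 higher under TMM, and medians of -2.49 and -1.08. The lower calls under TMM became 16 without scivMSC replicate 2. Of the 23 that reached the limit in both groups 22 were called lower, and 12 under TMM, beside 44.3% and 5.53% of all such genes.

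Natural killer and cytotoxic effector genes that passed the filter were called lower on the total-count scale. Of 31 listed genes 9 passed, 3 of them through Solvent alone, with 9 called lower, 4 lower under TMM and medians of -1.97 and -0.80. Of the 6 that reached the limit in both groups 6 were called lower, and 1 under TMM (16.7%). The shares of all such genes were 44.3% and 5.53%. The granzyme gene Gzma had FPKM of 19.7, 21.4 and 17.9 against 9.68, 4.07 and 2.92, a log2 fold change of -1.82 or -0.54 under TMM, where it was not called. Nkg7 (-1.66), the chemokine gene Ccl5 (-1.61) and the interleukin 2 receptor gene Il2rb (-1.97) were also called lower on the total-count scale alone. The NK receptor gene Klrd1 (-2.39 and -1.11) and the perforin gene Prf1 (-2.55 and -1.34) were called lower under both scalings.

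Monocyte genes were mostly lower. Ace, which patrolling monocytes express, had FPKM of 3.71, 3.01 and 1.32 in Solvent and 0.109, 0.0943 and 0.259 in scivMSC, for a log2 fold change of -4.10 ± 0.52 (SE) or -2.59 under TMM. Ctss, the gene for the lysosomal protease cathepsin S, had 25.4, 15.9 and 10.8 against 1.76, 0.810 and 1.99, for a log2 fold change of -3.51 ± 0.44 (SE). Neither gene overlapped between the groups. The growth factor receptor gene Csf1r (-2.50), the perforin-like gene Mpeg1 (-2.50) and Plac8 (-2.71) were lower under both scalings, while Ly6c2, a marker gene of the classical subset, had -1.57 and -0.19. F13a1, which platelets share with monocytes, had 0.97 and was called higher under TMM at 2.54. It was also called higher on the total-count scale without Solvent replicate 1 (1.33, adjusted p 0.0022) and without scivMSC replicate 3 (1.03, adjusted p 0.0193). Of 36 listed genes 18 passed the filter, 7 through Solvent alone. Of the 18, 14 were called lower (77.8%, beside 60.2% of all tested genes) and 0 higher. Under TMM 10 were lower (55.6%, beside 16.2%) and 2 higher (11.1%, beside 24.9%). The medians were -2.50 and -1.11. The count of 0 higher became 1 without either of those libraries. Of the 11 that reached the limit in both groups 7 were called lower (63.6%), and 3 under TMM (27.3%). The shares of all such genes were 44.3% and 5.53%. Of 21 basophil and eosinophil genes 2 passed the filter and 0 were called, with medians of -0.41 and 1.04. The histamine-forming enzyme gene Hdc (-0.07 and 1.19) was called higher under TMM, a count of 1 that became 0 without Solvent replicate 1, and 1 gene was called lower on the total-count scale without scivMSC replicate 3.

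Among genes of innate and cytokine signalling, Il1b, the inflammatory cytokine gene, was lower on the total-count scale and near 0 under TMM. It had FPKM of 17.3, 13.6 and 9.58 in Solvent and 7.96, 2.01 and 6.31 in scivMSC, for a log2 fold change of -1.31 ± 0.39 (SE) at an adjusted p of 0.00642, and 0.01 under TMM. All treated values were below all Solvent values, and without scivMSC replicate 2 the log2 fold change was -0.92, short of the threshold. Of the 5 tested genes of the IL-1 and inflammasome list 3 passed through Solvent alone. The other 2, of which Il1b is 1, were called lower on the total-count scale and not under TMM. The list's medians were -1.64 and -0.35, and its 1 lower call under TMM was lost without Solvent replicate 3 or scivMSC replicate 2. Of 5 tested Toll-like receptor pathway genes 3 were called lower (60%, beside 60.2% of all tested genes), and 2 under TMM. Tlr1 had -2.77, the adaptor Myd88 -1.74 and Tlr13 -0.77. The list's medians were -1.74 and -0.37. The 3 became 5 without scivMSC replicate 1, and the 2 became 1 without Solvent replicate 1 or scivMSC replicate 2.

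Of 25 tested cytokine receptor and JAK-STAT genes 23 were called lower and 0 higher, with 6 lower and 1 higher under TMM, and medians of -2.19 and -0.78. Of the 16 that reached the limit in both groups 14 were called lower (87.5%), and 4 under TMM (25%). The shares of all such genes were 44.3% and 5.53%. The interleukin 4 receptor gene Il4ra had FPKM of 5.51, 3.27 and 2.57 against 1.05, 0.436 and 0.626, for a log2 fold change of -2.42 ± 0.41 (SE) or -1.02 under TMM. The interleukin 17 receptor gene Il17ra (-2.49 and -1.26), the kinase gene Jak3 (-2.50 and -1.19) and the shared receptor chain Il2rg (-2.51 and -1.10) were called lower under both. Jak1 (-1.43 and -0.05) and Stat6 (-1.92 and -0.55) were called on the total-count scale alone, and Jak2 under neither (-0.70 and 0.77). The 6 became 3 without scivMSC replicate 2 and 11 without scivMSC replicate 3. Of 4 tested chemokine receptors 1 was called lower, Cxcr4 at -1.99, while Ccr1 had -0.42, and 1 was called higher under TMM, or 3 without scivMSC replicate 2. The medians were -0.44 and 0.91.

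Among Fc receptors and their signalling partners, 9 of 14 tested genes were called lower (64.3%), near the 60.2% of all tested genes. Under TMM 0 were lower and 2 higher (14.3%), beside 24.9% higher of all, and the medians were -1.07 and 0.32. Over the 12 that reached the limit in both groups the total-count median was -1.07, beside -0.92 for all such genes. The common gamma chain Fcer1g (-0.48 and 1.04), Fcgr3 (-0.50 and 0.79), Fcgr4 (-0.81 and 0.49), the kinase gene Syk (-1.06 and 0.36) and the adaptor gene Tyrobp (-1.08 and 0.31) all changed sign with the scaling. The 9 became 5 without Solvent replicate 1 and 5 without scivMSC replicate 2, and the calls of Syk and Tyrobp were lost in both cases. The 2 became 1 without Solvent replicate 3, scivMSC replicate 2 or scivMSC replicate 3. Of the 6 genes of the phagocyte oxidase 3 were called lower (50%) and 1 under TMM, with Cyba at -1.16, Ncf1 at -0.87, and medians of -1.05 and 0.33. The 3 became 5 without Solvent replicate 3 or scivMSC replicate 1, and Cyba was not called without Solvent replicate 1 or scivMSC replicate 2. Of 9 tested leukocyte integrins 5 were called lower (55.6%, beside 60.2% of all tested genes), with 3 higher and 2 lower under TMM. Their medians were -1.36 and 0.02. The 2 became 1 without scivMSC replicate 2, and 1 gene was called higher on the total-count scale without Solvent replicate 1. Of the 7 integrins that reached the limit in both groups 3 were called lower, and 0 under TMM. Itgal (-1.36 and 0.02) and Itgam (-1.59 and -0.40) were called lower on the total-count scale, the latter not without Solvent replicate 1, and Itgb2 (-0.80 and 0.61) was not.

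Interferon-stimulated genes, which antiviral cytokines induce, divided. Isg15, a ubiquitin-like gene, had FPKM of 95.1, 60.9 and 91.8 in Solvent and 103, 144 and 83.0 in scivMSC, a log2 fold change of 0.40 (adjusted p 0.232) or 1.95 under TMM, with overlapping groups. Irf7 (-0.34 and 1.23) and Ifitm3 (-0.35 and 1.21) were not called on the total-count scale and were called higher under TMM. Gbp9, a guanylate-binding protein gene (-3.42 and -2.13), and Ifi27l2a (-2.58 and -1.34) were lower under both. Bst2 (-1.85) was called on the total-count scale and Ifit3 (-0.78) under neither. Of 50 tested genes 34 were called lower (68%, beside 60.2% of all tested genes) and 0 higher. Under TMM 17 were lower (34%, beside 16.2%) and 10 higher (20%, beside 24.9%). The medians were -1.88 and -0.60. The count of 0 higher became 1 without Solvent replicate 1. Of the 33 that reached the limit in both groups 18 were called lower, with 4 lower and 10 higher under TMM, and medians of -1.09 and 0.22, beside -0.92 and 0.49 for all such genes.

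Smaller regulatory lists lay at unequal distances from the median of all genes. NF-kappaB genes and leukocyte transcription factors had medians of -0.63 and -0.52 relative to it. Immediate early and glucocorticoid response genes had 0.17 and 0.12, and both fell below 0 under limma on log2(FPKM + 1). Over members that reached the limit in both groups the latter lists had medians of -1.14 and -1.27, below the -0.92 of all such genes. Of 7 tested NF-kappaB genes, 4 of which passed through Solvent alone, 6 were called lower and 1 under TMM, or 2 without scivMSC replicate 1, with medians of -2.09 and -0.67. They included Nfkb1 at -2.09, Rela at -2.12 and the inhibitor Nfkbia at -1.83. Of the 3 that reached the limit in both groups 2 were called lower, and 0 under TMM. Of 12 immediate early genes 3 were called higher under TMM, with medians of -1.29 and -0.00. On the total-count scale 8 were called lower (66.7%, beside 60.2% of all tested genes), or 5 without Solvent replicate 1 or scivMSC replicate 2. Junb had -1.14, a call lost without either library, and Dusp1 had -0.31. Of 6 glucocorticoid response genes 5 were called lower, or 3 without either of those libraries, with medians of -1.34 and 0.00. Tsc22d3 had -1.40, and Txnip had -1.25, a call lost without either library. Under TMM 1 was called lower, which became 0 without scivMSC replicate 1 and 2 without scivMSC replicate 3. Of the 4 glucocorticoid response genes that reached the limit in both groups 3 were called lower, and 0 under TMM. Of 11 leukocyte transcription factors 8 were called lower (72.7%, beside 60.2% of all tested genes). Under TMM 3 were lower (27.3%, beside 16.2%) and 2 higher (18.2%, beside 24.9%). The medians were -1.99 and -0.69. Of the 11, 4 passed through Solvent alone. Of the 7 that reached the limit in both groups 4 were called lower, with 0 lower and 2 higher under TMM. The 2 became 1 without Solvent replicate 3 or scivMSC replicate 1, and 1 gene was called higher on the total-count scale without scivMSC replicate 2 or scivMSC replicate 3. Spi1 (-0.95) and Cebpb (-0.23) were not called, whereas Ikzf1 (-1.99), Klf2 (-2.36) and Ets1 (-1.94) were. Spi1 was called lower without Solvent replicate 3 (-1.11), scivMSC replicate 1 (-1.06) or scivMSC replicate 3 (-1.29).

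Ribosomal protein genes were mostly called lower on the total-count scale and seldom under TMM. Rpl3 had FPKM of 29.0, 15.6 and 12.5 in Solvent and 3.12, 1.23 and 2.68 in scivMSC, for a log2 fold change of -3.02 ± 0.45 (SE) or -1.59 under TMM, and Rps13 was similar (-3.00 and -1.57). Rps3 (-2.12) and Rpsa (-2.26) lay nearer to the list's median. Rplp0 had 219, 177 and 186 against 176, 204 and 146, a log2 fold change of -0.15. Of 82 tested genes 70 were called lower and 0 higher, with 5 lower and 3 higher under TMM, and medians of -1.85 and -0.39. The lower share under TMM, 6.10%, was below the 16.2% of all tested genes. Over the 79 that reached the limit in both groups it was 5.06%, near the 5.53% of all such genes. With no FPKM filter the list's median lay above that of all genes. Under TMM the lower calls became 9 without scivMSC replicate 1 and 3 without Solvent replicate 3, and the higher calls 7 without scivMSC replicate 1, 5 without Solvent replicate 3 and 1 without scivMSC replicate 2. Translation factors were similar, with 31 of 38 called lower and medians of -1.81 and -0.39. Eef1a1 (-2.02), Eef2 (-1.39) and Eif4b (-2.49) were called lower, while Eif5 (0.18) and Eif1 (0.25) were not. Under TMM 5 of the 38 were lower and 6 higher, and the 5 became 8 without scivMSC replicate 1 and 1 without scivMSC replicate 2. Of the 31 that reached the limit in both groups 24 were called lower (77.4%), and 4 under TMM (12.9%). The shares of all such genes were 44.3% and 5.53%.

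Splicing and RNA-binding genes were lower almost throughout, with 44 of 45 tested genes called lower and 16 lower under TMM. Of the 45, 20 passed the filter through Solvent alone. Of the 25 that reached the limit in both groups 24 were called lower (96%), and 7 under TMM (28%). The shares of all such genes were 44.3% and 5.53%. The medians of the 45 were -2.19 and -0.84, and the 16 became 8 without scivMSC replicate 2. Hnrnpa1, which binds pre-mRNA, had FPKM of 20.9, 10.9 and 10.9 against 2.13, 0.767 and 1.24, for a log2 fold change of -3.36 ± 0.46 (SE) or -1.98 under TMM. Srsf3 (-2.48), Sf3b1 (-2.52) and Hnrnpa2b1 (-2.07) were also called lower. Chaperone genes had 27 of 36 called lower, with 7 lower and 6 higher under TMM and medians of -1.89 and -0.54. Of the 28 that reached the limit in both groups 19 were called lower (67.9%), and 4 under TMM (14.3%), again beside 44.3% and 5.53%. The lower ones on the total-count scale included Hspa8 (-1.42), Hsp90aa1 (-1.38), Dnajb1 (-1.87) and Hsp90b1 (-2.34). The 7 became 2 without scivMSC replicate 2 and 4 without Solvent replicate 3. Proteasome genes had 30 of 39 called lower, with 5 lower and 4 higher under TMM and medians of -1.63 and -0.33. The 5 became 3 without Solvent replicate 3. Of the 39, 7 passed through Solvent alone. Of the 32 that reached the limit in both groups 23 were called lower, and 1 under TMM (3.12%, beside 5.53% of all such genes). The immunoproteasome genes Psmb8 (-2.26) and Psmb9 (-2.74) and the core subunit Psma7 (-1.56) were among the lower ones, and Psmd4 had 0.27.

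Lists of energy metabolism had medians above that of all genes, but at a mean FPKM of at least 5 those of mitochondrial transcripts and of glycolysis lay below it. Transcripts of the mitochondrial genome had a median of -0.55, or -0.46 with genes at the floor set to their bound, and 0.81 under TMM, with 9 of 25 called lower and 0 higher, and 9 higher under TMM. The cytochrome oxidase transcript mt-Co1 had FPKM of 1405, 955 and 1126 against 1291, 929 and 1006, a log2 fold change of -0.12 with overlapping groups. mt-Nd1 had -1.46, mt-Cytb -0.62 and mt-Atp6 -0.31. Nuclear genes of the respiratory chain had a median of -1.04, with 35 of 76 called lower, or 22 without Solvent replicate 1, and 27 higher and 2 lower under TMM, where the median was 0.28. Over the 68 that reached the limit in both groups the median was -0.92, the same as that of all such genes. The 2 became 8 without scivMSC replicate 1 and 1 without Solvent replicate 1 or scivMSC replicate 2. Ndufa4 (-0.42), Cox4i1 (-0.19), Atp5b (-0.31) and Uqcrb (-1.01) were not called. Of 13 glycolysis and glucose transporter genes 6 were called lower (46.2%, beside 60.2% of all tested genes). Under TMM 3 were higher (23.1%, beside 24.9%) and 1 lower (7.69%, beside 16.2%). The medians were -0.67 and 0.77. The 3 became 5 without scivMSC replicate 2. The 1 became 0 without Solvent replicate 1 or Solvent replicate 3 and 2 without scivMSC replicate 3. Of the 12 that reached the limit in both groups 5 were called lower, and 0 under TMM. Pkm had -0.52, Ldha -1.54 and Hk1 -0.08. Of 31 cytoskeletal genes of leukocytes 20 were called lower (64.5%, beside 60.2% of all tested genes), with medians of -1.33 and 0.04. Under TMM 6 were higher and 2 lower, and the 2 became 1 without scivMSC replicate 2. On the total-count scale 0 were called higher, or 2 without Solvent replicate 1 and 1 without scivMSC replicate 2 or scivMSC replicate 3. Actb (-1.46), Coro1a (-2.05), Evl (-2.95) and Vim (-1.53) were called lower, and Cfl1 (-0.58) and Arhgdib (-0.11) were not. Tmsb4x, an actin-binding peptide gene abundant in platelets, had 961, 762 and 552 against 1382, 1472 and 1204, a log2 fold change of 0.83, under the threshold, or 1.04 without Solvent replicate 1.

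Structural RNAs that are not translated showed some of the largest differences. Rn7sk, the RNA that holds a transcription elongation factor inactive, had FPKM of 42.3, 22.8 and 27.7 in Solvent and 0.786, 0.299 and 0.159 in scivMSC, for a log2 fold change of -6.11 ± 1.14 (SE), and -4.75 under TMM. It passed the filter only through Solvent, the group where it was high. Rn7s1, an RNA of the signal recognition particle, had 161, 253 and 202 against 4.87, 2.91 and 5.45, for a log2 fold change of -5.53 ± 0.94 (SE). Its near copy Rn7s2 had 166, 245 and 270 against 4.11, 2.69 and 0, for a log2 fold change of -6.63 ± 1.37 (SE). Rpph1 and Rmrp, the RNAs of the RNase P and RNase MRP enzymes, were at or under the floor of 12 counts in every scivMSC library and at least 11.7-fold and 6.31-fold lower. These RNAs were not low in scivMSC alone. In scMSC replicate 3 Rn7sk was at 0.690 and Rn7s1 at 6.86, and Rpph1 and Rmrp were listed at 0, while the other scMSC libraries and all DNCB libraries lay far above, with Rn7s1 at 95.7 to 432. The 4 libraries with low values thus came from both MSC groups. The nuclear RNA Malat1 (-3.84 and -2.57), which has no known protein product, was also lower under both scalings, but in scMSC its mean FPKM was 4.60. A pseudogene under the symbol CT010467, which another gene of the table shares, had -4.33, and the assignment of its reads is uncertain.

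**Figure D5:**
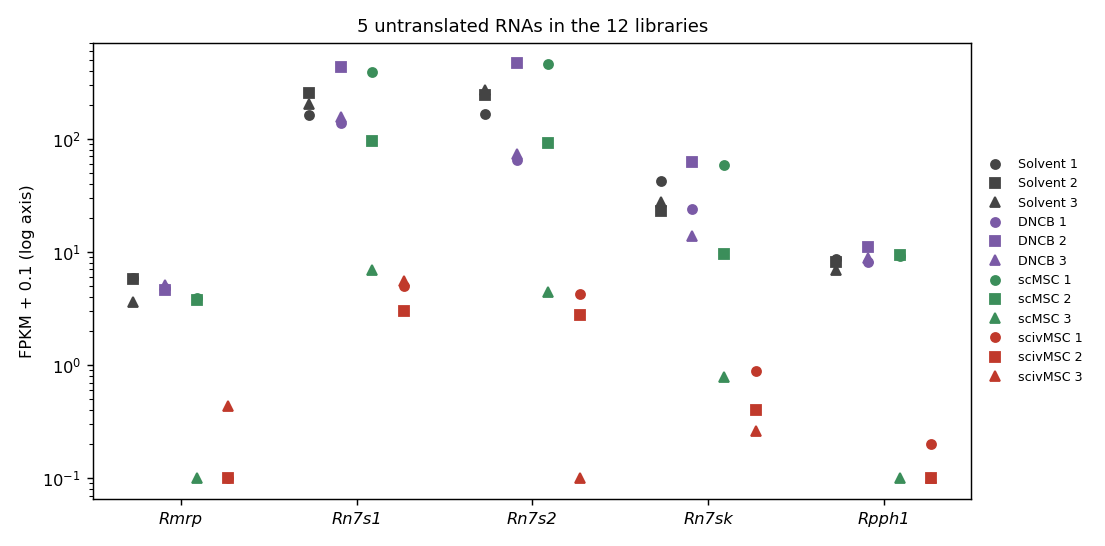
FPKM plus 0.1 (log axis) of 5 structural RNAs in all 12 libraries, coloured by group with replicates 1, 2 and 3 as circle, square and triangle. All 3 scivMSC libraries and scMSC replicate 3 lie below the other 8 libraries for each RNA; values at 0.1 are listed at 0.

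Mouse marker genes gave little sign of skin, fibroblast or endothelial cells in the samples. Transcripts of the injected human MSCs were not looked for. Of 16 listed skin, fibroblast and endothelial markers 1 passed the filter, Pecam1, which platelets also carry, with 0 called on the total-count scale, or 1 without Solvent replicate 1. The keratin gene Krt14 had a mean FPKM of 0.0107 in Solvent and was listed at 0 in scivMSC, and the collagen gene Col1a1 had 0.611 and 0.0214. None of the 9 blood progenitor markers in the table passed, and Kit had a mean of 0.0390 in Solvent and 0.0257 in scivMSC.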

How the data were processed

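Blood RNA was sequenced in 12 libraries, taken as 1 per mouse, in 4 groups of 3 given by the sample labels. The authors deposited, in 1 table, FPKM and estimated counts per gene. The submitters' processing notes name Bowtie 0.12.2, HISAT2 2.0, StringTie 1.3.0 and the genome build mm8. Of 21414 genes matched to RefSeq by symbol, however, 96.3% overlapped their GRCm38.p6 position, so no coordinates are given. The deposited counts are whole numbers, many of them multiples of 4 (29.0% of low counts equal 4), so a floor of 12 counts per library was used. The table left 0 columns of sample values unused.

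Genes that reached an FPKM of 1 in 3 or more of the 6 libraries entered a test by edgeR 4.0.16 in R 4.3.3 (quasi-likelihood, 12 libraries, 4 group means, total-count offsets), at a Benjamini-Hochberg adjusted p under 0.05 and a log2 fold change beyond 1. TMM scaling is given beside it. DESeq2 1.42.0, limma 3.58.1 on log2(FPKM + 1) and log2(FPKM + 0.1), other filters, counts divided by 4, a replicate block and left-out libraries were alternatives. On simulated data for this comparison with 4220 genes, 90 of 100 genes changed 4-fold were recovered on the total-count scale, with 6 false calls. Besides these, 100 genes were changed 8-fold and the rest were left unchanged. The simulation thus lacked the shift of most genes seen in the data, and its recovery does not carry over to them.

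Gene lists were described by counts and medians, with no list test. Members and lists were chosen with earlier results of these data known. Named genes were the key genes of each list, up to 2 further members per list and direction and 8 genes per direction over all tested genes, each of the latter called under both scalings, with groups not overlapping and a mean FPKM of at least 5. Another 22 were named after their values were seen: Chil3, Mmp8, Olfm4, Ly6g, Cd177, Lyz2, Gp9, Gp5, Treml1, Apol10c-ps, Rmrp, Rpph1, Ace, Ly6d, Prf1, Ighg1, Ldb1, Slc2a1, Tmod1, Tbxas1, F13a1 and Gbp9. Pecam1, Krt14, Col1a1 and Kit are named as marker checks. Some genes that the rule names are not reported here.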

Additional observations from a re-analysis of the deposited data

How the results depend on the processing

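The direction of a gene's change often depended on the scaling, whose shift of 1.38 turned genes with small negative values positive. Of the 219 named genes, 49 changed sign under TMM and 49 under DESeq2, 46 with only the 6 libraries and TMM, 47 with a replicate block and TMM, 19 with totals that leave out haemoglobin, and 0 to 9 with a library left out. Those called under the setting or on the total-count scale numbered 31, 31, 26 and 29 in the first 4 settings and 0 in the others. Under TMM their log2 fold changes were Csf3r 0.23, Hdc 1.19, B2m 1.40, H2-D1 0.48, Irf7 1.23, Ifitm3 1.21, Il1b 0.012, Fcer1g 1.04, Syk 0.36, Tyrobp 0.31, Cyba 0.27, Itgal 0.016, Junb 0.25, Dusp1 1.04, Txnip 0.073, Tgfb1 1.26, Hba-a2 1.19, Fech 1.43, Ube2l6 1.40, Cebpb 1.10, Rplp0 1.36, Eef2 0.079, mt-Co1 1.33, mt-Atp6 1.10, Ndufa4 1.05, Cox4i1 1.25, Atp5b 1.13, Hk1 1.31, Hsp90aa1 0.023, Arhgdib 1.37, Lyz2 1.23. Under DESeq2 they were Csf3r 0.26, Hdc 1.23, B2m 1.46, H2-D1 0.54, Irf7 1.301, Ifitm3 1.28, Il1b 0.043, Fcer1g 1.09, Syk 0.40, Tyrobp 0.35, Cyba 0.31, Itgal 0.052, Junb 0.28, Dusp1 1.07, Txnip 0.11, Tgfb1 1.31, Hba-a2 1.26, Fech 1.48, Ube2l6 1.46, Cebpb 1.13, Rplp0 1.43, Eef2 0.13, mt-Co1 1.38, mt-Atp6 1.15, Ndufa4 1.10, Cox4i1 1.31, Atp5b 1.18, Hk1 1.36, Hsp90aa1 0.090, Arhgdib 1.42, Lyz2 1.28. With only the 6 libraries and TMM they were Csf3r 0.19, Hdc 1.15, B2m 1.36, H2-D1 0.44, Irf7 1.19, Ifitm3 1.17, Fcer1g 1.00, Syk 0.32, Tyrobp 0.27, Cyba 0.22, Junb 0.21, Txnip 0.033, Tgfb1 1.22, Fech 1.39, Ube2l6 1.35, Cebpb 1.06, Rplp0 1.32, Eef2 0.038, mt-Co1 1.28, mt-Atp6 1.06, Ndufa4 1.01, Cox4i1 1.21, Atp5b 1.09, Hk1 1.27, Arhgdib 1.33, Lyz2 1.19. With the replicate block and TMM they were Csf3r 0.23, Hdc 1.24, B2m 1.40, H2-D1 0.48, Irf7 1.19, Ifitm3 1.17, Fcer1g 1.04, Syk 0.36, Tyrobp 0.31, Cyba 0.27, Junb 0.24, Dusp1 1.05, Txnip 0.058, Tgfb1 1.25, Hba-a2 1.17, Fech 1.43, Ube2l6 1.40, Cebpb 1.14, Rplp0 1.33, Eef2 0.080, mt-Co1 1.33, mt-Atp6 1.10, Ndufa4 1.05, Cox4i1 1.25, Atp5b 1.14, Hk1 1.32, Hsp90aa1 0.0094, Arhgdib 1.34, Lyz2 1.24. The count of genes called higher, 121, was 1049 under TMM, 307 with totals that leave out haemoglobin, 1087 with DESeq2, 66 with limma on log2(FPKM + 1), 217 with no FPKM filter, 48 with a mean FPKM of at least 5 1012 with only the 6 libraries and TMM, and 100 among genes that passed the filter through both groups. It ran from 89 to 183 with a library left out, and under TMM it was 964, 1009 and 1034 without Solvent replicates 1, 2 and 3 and 1092, 950 and 1043 without scivMSC replicates 1, 2 and 3. The count called lower, 2541, was 684 under TMM, 651 with DESeq2, 1655 with limma on log2(FPKM + 1), 6908 with no FPKM filter, 339 with a mean FPKM of at least 5 714 with only the 6 libraries and TMM, and 1289 among genes that passed through both groups. It ran from 2142 to 2833 with a library left out, and under TMM it was 687, 737 and 657 without Solvent replicates 1, 2 and 3 and 862, 520 and 782 without scivMSC replicates 1, 2 and 3. Leaving out libraries under TMM and counting genes that passed through both groups were chosen after seeing the data. Of 44 lists, 24 had a median above that of all genes, and 12 did among the 34 lists that could be compared at a mean FPKM of at least 5. There 9 changed side (neutrophil receptors, Fc receptors, phagocyte oxidase, integrins, immediate early genes, mitochondrial transcripts, proteasome, glycolysis and leukocyte cytoskeleton). With no FPKM filter 6 did (NK, Toll-like receptor, BMP and TGF-beta, ribosomal protein, translation factor and proteasome lists), and 4 with limma on log2(FPKM + 1) (integrins, immediate early, glucocorticoid response and cytoskeleton). Of the other settings, 6 that leave out a library turned 1 or 2 lists each, and the rest none. The haemoglobin difference of 1.27 percentage points ran from 0.586 to 1.74 with a library left out. Libraries share only replicate numbers: same-numbered deviations correlated at 0.08, -0.04 and -0.04 under TMM, and not every library correlated best with its own number. The replicate block gave 126 higher and 2573 lower calls, or 1033 and 710 with TMM. Low counts limit the rest, since genes under about 12 counts in all scivMSC libraries have only a bound.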
